A study of Homo sapiens and Mus musculus with 20 samples.

Results

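Full-length Satb1 was mapped by ChIP-seq in MCF10A cells, and 1197 of its 22877 peaks (5.23%) overlapped a region of accessible chromatin by at least 1 bp. The other 21680 peaks lay outside every such region. Accessible regions came from ATAC-seq, in which a transposase inserts adapters mainly where DNA is not wrapped on nucleosomes, and were listed once for native MCF10A and once for MCF10A expressing Satb1. Of the 1197 accessible Satb1 peaks, 647 (54.1%) overlapped a region in both ATAC lists, 135 (11.3%) in the native list only, and 415 (34.7%) in the list of Satb1-expressing cells only. These peaks were chosen by their overlap with the ATAC lists, so the overlap itself and these 3 classes are a description and not a finding. The native list overlapped 3.42% of all full-length peaks and the list of Satb1-expressing cells 4.64%.

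MCF10A, an immortalised line of human breast epithelium, makes no Satb1 of its own. The Satb1-expressing cells carried a full-length Satb1-eGFP fusion, delivered by lentivirus under a cumate-inducible promoter and sorted for fluorescence, and the fusion was precipitated through its eGFP tag. The same peaks were looked up in lists for the ∆HD construct, which lacks the homeodomain, and for the N-C1 construct, which holds the N-terminal part and the CUT1 domain. They were also looked up in lists for full-length Satb1 in cells given camptothecin, which inhibits topoisomerase I, or ICRF-193, which inhibits topoisomerase II, each for 2 h. Every list is a single set of peaks for its condition, so no test between conditions could be made. Intervals in parentheses are 95% intervals across peaks. They cover counting error only, since peaks are not replicates and neighbouring peaks are not independent. All coordinates are hg19.

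Satb1 belongs to the CUT-homeodomain family and binds A/T-rich DNA, and in T cells it is known as an organiser of chromatin folding. Its CUT domains and homeodomain contact DNA, and its N-terminal part joins Satb1 molecules to each other. Accessible regions away from genes are often enhancers, and in epithelial cells many carry the site of AP-1, the Fos and Jun dimers. Promoters were open widely in both ATAC lists, with 76.8% of 19807 protein-coding genes overlapping a region in the native list and 80.3% in the Satb1-expressing list. The promoters of all 12 mammary epithelial marker genes examined, KRT5, KRT14, KRT17, TP63, CDH1, EPCAM, ITGB4, ITGA6, LAMB3, EGFR, SFN and KRT18, overlapped a region in both. Of markers of other cell types, 4 of 7 thymocyte, 4 of 6 fibroblast and 2 of 5 endothelial promoters did so in the native list, and 5, 4 and 2 in the Satb1-expressing list. CD8A, RAG1, RAG2, LCK, COL1A1, PDGFRB, DCN, LUM, CDH5 and KDR were in both lists, and PTPRC, CD3E, COL1A2, COL3A1, PECAM1, VWF and TEK in neither. Promoter overlap in these lists thus does not by itself set the labelled cell type apart.

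The sequences below were chosen to show what Satb1 occupied at the accessible peaks. Each is a 120 bp window at the peak summit, read 5′ to 3′ on the plus strand of hg19, with matches to the Satb1 consensus in capitals. The consensus was taken as C or T, then TA, then A or T, then TA, then A or G, which gives 8 words such as CTAATAA and, counting both strands, TTATTAG. The first 3 windows are the strongest peak of each class, followed by the strongest promoter peak, the peak in the strongest native ATAC region, and the strongest peak with no match.
KDM5A intron, both lists, chr12:441857-441976: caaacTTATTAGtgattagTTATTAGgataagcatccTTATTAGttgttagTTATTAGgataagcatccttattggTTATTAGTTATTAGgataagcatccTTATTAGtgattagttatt
Intergenic, nearest start POM121L12, native list only, chr7:52355540-52355659: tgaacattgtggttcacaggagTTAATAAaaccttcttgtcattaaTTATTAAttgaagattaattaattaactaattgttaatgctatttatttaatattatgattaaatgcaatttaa
Intergenic, nearest start FOXD4L3, Satb1-expressing list only, chr9:70931511-70931630: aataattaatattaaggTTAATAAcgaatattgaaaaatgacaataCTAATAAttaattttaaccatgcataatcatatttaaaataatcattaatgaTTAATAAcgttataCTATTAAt
AKAP17A promoter, both lists, chrX:1709970-1710089: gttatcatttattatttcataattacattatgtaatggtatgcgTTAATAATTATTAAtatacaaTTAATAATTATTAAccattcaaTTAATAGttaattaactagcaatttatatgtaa
Intergenic, nearest start IGHV3OR16-17, both lists, chr16:33947648-33947767: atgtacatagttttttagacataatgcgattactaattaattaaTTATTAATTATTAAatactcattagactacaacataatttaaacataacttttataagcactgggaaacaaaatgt
Intergenic, nearest start CDON, Satb1-expressing list only, chr11:125934982-125935101: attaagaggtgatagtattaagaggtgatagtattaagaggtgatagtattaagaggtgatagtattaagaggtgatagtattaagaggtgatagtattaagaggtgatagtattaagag

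The KDM5A window, in an intron of the gene for a histone H3 lysine demethylase, held 7 matches in tandem and the peak reached a fold enrichment of 54.3 over input as the peak caller gave it. The POM121L12 window held 2 matches at a fold enrichment of 40.2, and the FOXD4L3 window held 4 at 59.0, the largest value among all 22877 full-length peaks. In the window of 400 bp used for counting, these 3 peaks held 9, 6 and 12 matches. The most was 14, as at the peak near BMF. The AKAP17A and IGHV3OR16-17 windows held 5 and 2. The CDON peak held none in 400 bp at a fold enrichment of 49.1, and its window is a tandem repeat that does not contain the 8 words.

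Fold enrichment of the accessible peaks was close to that of the rest. Its median was 7.52 (7.21 to 7.87) over the 1197 accessible peaks and 7.28 (7.19 to 7.33) over the 21680 others. This order did not hold for the 683 accessible peaks whose summit, the point of highest signal, was itself inside an ATAC region, whose median was 6.50 against 7.33 for all remaining peaks. The class medians were 7.46 for both lists, 7.60 for native only and 7.60 for Satb1-expressing only. Accessible peaks were wider, with a median of 348 bp (338 to 354) against 312 bp (311 to 314), and a wide peak has more positions at which it can meet an ATAC region.

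Accessibility differed along the range of Satb1 signal and was highest at its 2 ends. In 4 equal bins of fold enrichment, from weakest to strongest, the accessible share was 6.14%, 3.78%, 4.30% and 6.71%. Among the strongest 1000 peaks it was 10.3% (8.49 to 12.4), among the strongest 250 it was 21.2% (16.3 to 26.8), and among the strongest 100 it was 35% (25.7 to 45.2). These cut-offs were chosen after the values were seen. The 35 accessible peaks of the strongest 100 split into 8 in both lists, 0 in the native list only and 27 in the Satb1-expressing list only. A count of 0 of 100 allows a native-only share of up to 3%. The strongest 100 had a median width of 1100 bp, and when every peak was replaced by 200 bp at its summit, 8 of the 100 remained accessible, 1 in both lists, 1 native only and 6 Satb1-expressing only. With the 200 bp windows the 4 bins gave 5.51%, 3.22%, 3.29% and 3.60%. Most of the overlap at strong peaks therefore lay on their flanks and not at their summits, whereas the weakest bin stayed high, and was the highest of the 4 with 200 bp windows.

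**Figure D1:**
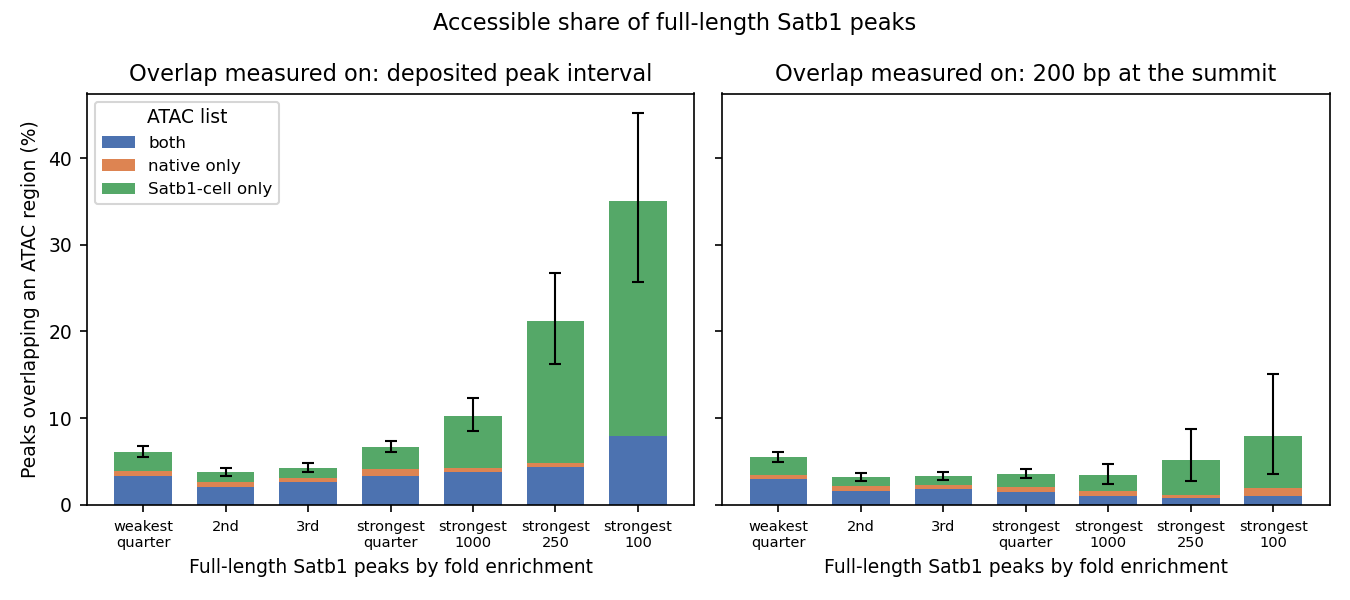
Share of full-length Satb1 peaks overlapping an ATAC region (y axis, %) in bins of fold enrichment (x axis), with stacked colours for the 3 classes and bars for exact 95% intervals of the total. On the left, with deposited intervals, the strongest 100 peaks reach 35% and most of that bar is Satb1-expressing only, and on the right, with 200 bp at the summit, the same bar is 8%.

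ATAC cover was then read at set distances on either side of each summit, a measure that does not use peak width. A peak counted as covered at a distance if the position on either side was, so a single position was read at the summit and 2 at each distance. Around the strongest 100 peaks, the list of Satb1-expressing cells covered 7 of the 100 at the summit, 10 at 200 bp, 24 at 400 bp, 37 at 600 bp, 31 at 1000 bp and 23 at 5000 bp. The native list covered 1, 2, 6, 7, 8 and 11 of the same 100 at those distances. The 2 lists thus differed most at about 600 bp from the summit, 37% (27.6 to 47.2) against 7% (2.86 to 13.9). Around the next 900 peaks by rank the values at 600 bp were 6.89% and 3.22%, and around the 21877 weaker peaks they were 7.94% and 6.17%. Counted per position, which removes the effect of reading both sides, cover at 600 bp and at the summit was 22% and 7% for the strongest 100 peaks and 4.63% and 2.63% for the weaker peaks in Satb1-expressing cells, and 4% and 1% and then 3.42% and 1.78% in native cells. The 2 lists differ in size, with 175989 regions covering 165 Mb in native and 206170 covering 256 Mb in Satb1-expressing cells, and their depth is unknown. The larger cover raises the values of Satb1-expressing cells at any position.

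**Figure D2:**
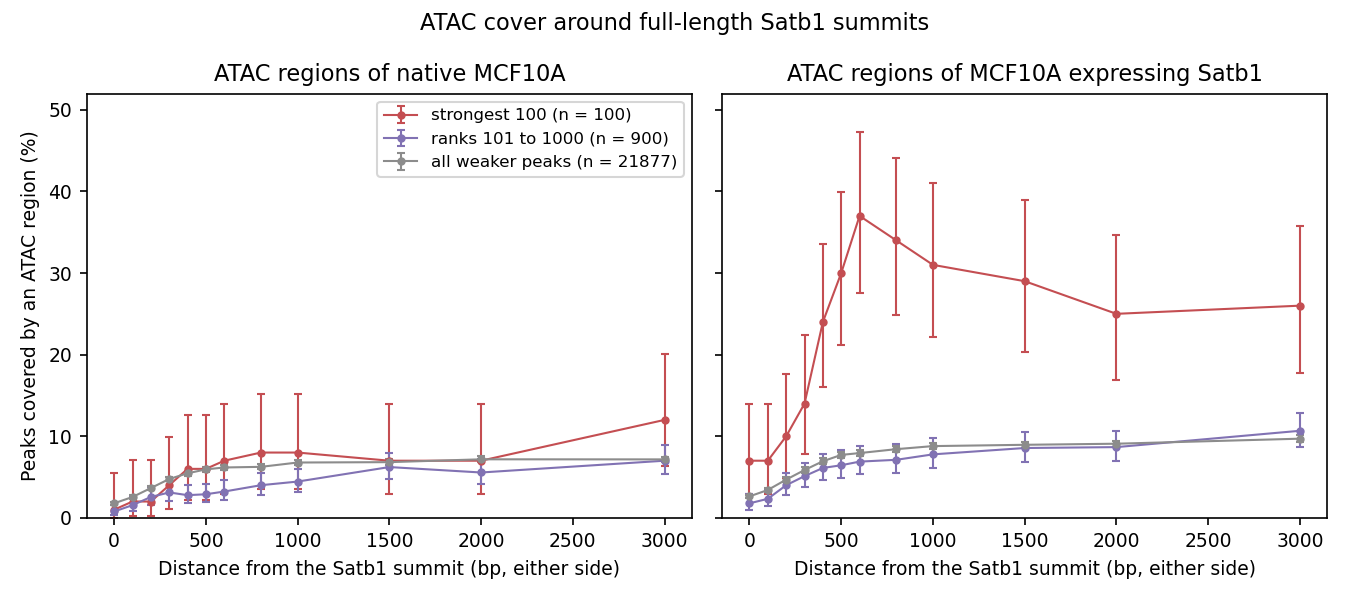
Percentage of full-length Satb1 peaks covered by an ATAC region (y axis) at a distance on either or both sides of the summit (x axis, bp, with 1 position read at the summit and 2 elsewhere), for 3 ranks of fold enrichment, with exact 95% intervals. In Satb1-expressing cells the strongest 100 peaks rise from 7% at the summit to 37% at 600 bp, while in native cells they stay at or below 12%.

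Of the 27 peaks of the strongest 100 that were accessible in Satb1-expressing cells only, 21 had their summit outside the ATAC region, at a median of 382 bp from it. The ATAC regions they touched were weak, with fold enrichment between 1.81 and 3.21 and a median of 2.04, against 2.93 for all regions of that list. Examples were the peak near DIRAS2 (fold enrichment 56.0 for Satb1, 1.90 for ATAC) and the peak near BMF, a pro-apoptotic BCL2 family gene (55.3 and 2.21). Their nearest native ATAC regions were 4926 and 6350 bp away.

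Many of these strongest peaks shared a longer sequence. The most common 16-base word in 1000 bp around the strongest 100 summits was present at 46 of them and was looked up after these peaks had been seen. The examples below, 80 bp each, show it in capitals beside 2 strong Satb1-expressing-only peaks, with the strand as stated.
Near FOXD4L3, chr9:70931717-70931796, minus strand: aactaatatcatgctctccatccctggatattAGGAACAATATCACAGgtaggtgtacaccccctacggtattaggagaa
Near DAPL1, chr2:159735559-159735638, plus strand: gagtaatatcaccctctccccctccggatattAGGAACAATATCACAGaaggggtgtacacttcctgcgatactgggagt

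The 16-base word lay near 112 full-length peaks on 21 chromosomes, and 57 of them (50.9%, 41.3 to 60.5) were accessible, 23 in both lists, 0 in native only (which allows up to 2.68%) and 34 in Satb1-expressing only. Among the other 22765 peaks 5.01% (4.73 to 5.30) were accessible. The 112 peaks had a median fold enrichment of 45.0, a median width of 992 bp and a mean of 5.78 consensus matches. Within the strongest 100, 25 of the 46 peaks with the word were accessible and 10 of the 54 without it. The word did not sit at the Satb1 summit in the examples, lying 186 and 400 bp away. It occurs 745 times in the reference genome, and an ATAC region of Satb1-expressing cells lay within 500 bp of 251 copies (33.7%), against 109 (14.6%) for native cells. At the 146 copies with a full-length summit within 500 bp these shares were 49.3% and 19.9%, and at the 599 copies without one they were 29.9% and 13.4%. The copies resemble one another, and how reads with several equally good positions were treated, beyond default aligner settings, is not given in the sources used here. The part of read placement in these values was not tested.

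The FOXD4-like genes, near-identical copies of a forkhead transcription factor gene on chromosomes 2 and 9, had 6 accessible peaks within 20 kb of a start, all with the word. The peaks nearest FOXD4L3 had fold enrichments of 59.0 and 47.2, that near FOXD4 51.3, those nearest FOXD4L6 51.1 and 37.9, and that near FOXD4L1 50.3. The nearest start was 12.3 to 18.7 kb away. Reads from such copies may not be separable, so these 6 values are uncertain as separate sites.

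The ATAC regions that held an accessible Satb1 peak were wider than usual. In native cells 752 regions held one, with a median width of 811 bp and a median fold enrichment of 5.19, against 550 bp and 4.39 for all regions. In Satb1-expressing cells 982 regions held one, with medians of 1074 bp and 3.46 against 628 bp and 2.93. A wide region has more chance of meeting a peak, and per megabase covered the strongest ATAC regions held the fewest Satb1 peaks. Over 4 equal bins of ATAC fold enrichment, from weakest to strongest, there were 6.46, 6.27, 5.28 and 3.19 peaks per Mb in native cells, and 4.29, 5.13, 4.55 and 3.35 in Satb1-expressing cells. Counted per region, the strongest bin held a peak most often, in 0.502% of native regions against 0.357% of the weakest. In Satb1-expressing cells these shares were 0.617% and 0.322%. A peak that only reaches into a region also counts, which weighs more for narrow regions, so neither measure removes width. The classes also differed in the regions they used. Native regions with a peak of the class in both lists had a median fold enrichment of 5.82, and those of the native-only class 3.11. In Satb1-expressing cells the class in both lists had 4.57 and the class of those cells only had 2.44. All regions missing from the other list were weak in the same way, at 2.65 for the 19674 native and 2.03 for the 61371 Satb1-expressing regions.

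Peaks of the single-list classes were often close to a region of the list they missed. Of the 135 native-only peaks, 51.9% (43.1 to 60.5) had a region of Satb1-expressing cells within 500 bp, at a median gap of 385 bp. Of the 415 Satb1-expressing-only peaks, 38.8% (34.1 to 43.7) had a native region within 500 bp and 80% within 5000 bp, at a median gap of 1056 bp. For peaks outside both lists the median gaps were 9114 bp to a native region and 8154 bp to a region of Satb1-expressing cells. LAMA3, which encodes a laminin chain of the epithelial basement membrane, shows how small the margin can be. Its intronic peak (fold enrichment 16.8) overlapped a native region by 13 bp and missed a region of Satb1-expressing cells by 42 bp. At the limit of the rule, the peaks in RIPK2, near DAOA, in IL1RAPL2 and near EPHA5 overlapped a region by 1 bp, whereas peaks near N4BP1 and in VPS13B ended 0 and 1 bp short of one.

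The summit lay inside the ATAC region for 398 of 782 peaks in the native list (50.9%, 47.3 to 54.5) and for 598 of 1062 in the Satb1-expressing list (56.3%, 53.3 to 59.3). In the rest the peak only reached into the region, and the summit stood a median of 112 and 119 bp outside. Relative position, set to 0 at the midpoint and 1 at either end, had a median of 0.502 (0.439 to 0.557) in native and 0.512 (0.467 to 0.550) in Satb1-expressing cells, where an even spread gives 0.5. In native cells the 5 zones from midpoint to ends held 16.3%, 24.6%, 19.3%, 20.4% and 19.3% of summits, and in Satb1-expressing cells they held 20.1%, 19.1%, 20.9%, 20.9% and 19.1%. The intervals of 9 of these 10 shares include 20%, and the second native zone lies above it (20.5 to 29.2). The spread differed between region widths, without a steady trend. In native regions of up to 500 bp the median was 0.711 (0.580 to 0.807) over 55 summits, with 20% (10.4 to 33.0) in the inner 50% of the region, and in those over 1000 and up to 5000 bp it was 0.410 (0.369 to 0.482) over 213, with 58.2% (51.3 to 64.9) there. In Satb1-expressing cells these medians were 0.728 (0.630 to 0.780) and 0.487 (0.439 to 0.533). The part of peak width in these values was not tested. Over all widths the medians of ∆HD and N-C1 summits were between 0.512 and 0.530. In native cells the end zone held 23.2% (20.9 to 25.7) of N-C1 summits and the third zone 17.3% (15.2 to 19.6) of ∆HD summits. AP-1 matches were read in ATAC regions of up to 5000 bp. Over 1 in 10 such regions of each list, their median relative position was 0.385 in native and 0.395 in Satb1-expressing cells. In such regions that held a Satb1 summit it was 0.545 and 0.546. Regions that held an accessible peak were wider than usual, and the part of region width in these values was not tested.

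**Figure D3:**
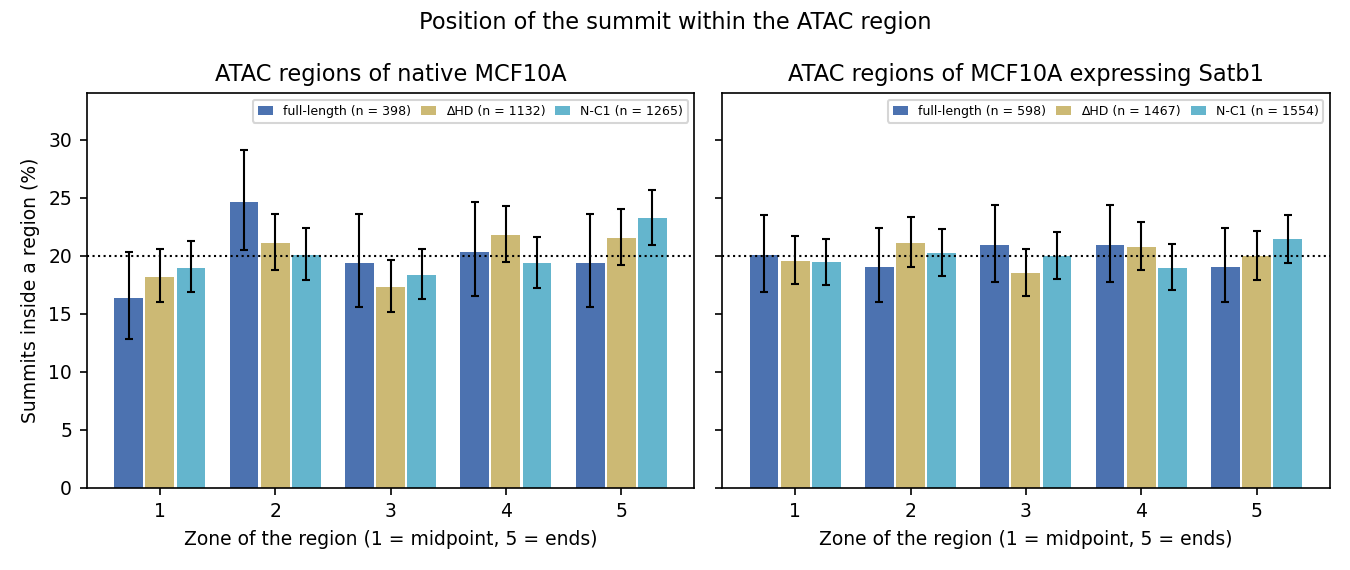
Percentage of Satb1 summits (y axis) in 5 equal zones of the ATAC region from its midpoint to its ends (x axis), for full-length Satb1, ∆HD and N-C1, with exact 95% intervals and a dotted line at an even spread of 20%. Full-length shares run from 16.3% to 24.6% in native cells and from 19.1% to 20.9% in Satb1-expressing cells.

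The accessible peaks in the strongest native ATAC regions with the summit inside had Satb1 fold enrichments from 4.52 to 21.0. The strongest region (fold enrichment 52.2, 20785 bp wide) held a Satb1 peak of 4.52 whose nearest start, that of IGHV3OR16-17, was over 100 kb away. The next 4 held peaks of 16.2 in PRKG1, 6.26 near SLC28A2, 5.25 in PDE4DIP and 21.0 in KATNBL1, at ATAC fold enrichments of 38.9, 37.2, 36.3 and 31.3. The PRKG1 summit was 72 bp and the SLC28A2 summit 51 bp from the end of its region, whereas the PDE4DIP summit was near the middle of a region 9184 bp wide.

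Peaks with the summit inside a region differed from those that only reached in. The 683 with the summit inside at least 1 list had a median fold enrichment of 6.50 (6.23 to 6.78), a mean of 2.18 consensus matches (2.06 to 2.31) and an A/T content of 68.4% in 200 bp (67.9 to 68.9). The 514 with the summit outside had 10.2 (9.14 to 10.9), 3.16 (2.96 to 3.36) and 72.2% (71.7 to 72.7).

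The Satb1 consensus had a lower share at accessible peaks, although nearly all held it. Of all full-length peaks 96.6% held at least 1 match in 400 bp, and the share was 91.2% (89.5 to 92.8) for accessible peaks and 96.9% (96.6 to 97.1) for the others. It was 89.5% in the class in both lists, 94.8% in native only and 92.8% in Satb1-expressing only. All remained far above ATAC regions in general, whose midpoints held a match in 16.7% (native) and 15.2% (Satb1-expressing) of windows of the same length, and above 35116 RefSeq promoter windows of 300 bp, with 7.74%. The paper derived its Satb1 consensus from full-length peaks of these same cells. A high share at the peaks against other windows was thus fixed in advance and is not a finding. Of the 4 words into which the 8 collapse when both strands are read together, TTAATAA made up 49.1% of matches at accessible peaks and 47.9% elsewhere, and CTAATAG 7.84% and 8.88%.

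Match number behaved like peak strength. The accessible share was 13.4% (11.1 to 16) for peaks with 0 matches, 7.28% with 1, 4.75% with 2, 4.17% with 3, 3.93% with 4, 4.07% with 5 or 6, and 13.7% (10.5 to 17.5) with 7 or more. At the upper end 38 of 54 accessible peaks were Satb1-expressing only, and 9.16% of that class (6.56 to 12.3) held 7 or more matches against 2.16% of the class in both lists and 1.48% of native only. With 200 bp at the summit the share at 7 or more fell to 4.83%, and that at 0 matches was 11.1%. Accessible peaks within 2 Mb of an assembly gap of at least 1 Mb held a match in 71.6% (63.2 to 79.1). Those farther away did so in 93.7% (92.1 to 95.1). For peaks outside both ATAC lists these shares were 92.7% and 97.0%. The mean number of matches was 2.60 (2.49 to 2.72) at accessible and 2.73 (2.71 to 2.75) at other peaks, an order that turned to 2.83 and 2.77 among peaks with a fold enrichment of at least 5. A/T content was 70.0% (69.7 to 70.4) against 72.5% (72.4 to 72.6), while CpG dinucleotides numbered 2.53 against 1.61 per 400 bp.

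AP-1 matches, TGANTCA on either strand, had a higher share at accessible peaks beside the Satb1 summit but not on it. In 400 bp windows 12.4% of all full-length peaks held a match. The share was 17.5% (15.4 to 19.7) at accessible peaks, with 19.9% in both lists, 15.6% in native only and 14.2% in Satb1-expressing only, and 12.1% (11.7 to 12.6) at other peaks. Within 200 bp windows the intervals overlapped, 5.60% (4.36 to 7.05) against 5.92% (5.61 to 6.24). Counted in rings, a choice made after this was seen, accessible and other peaks held a match in 6.02% and 6.09% of cases up to 100 bp from the summit, in 11.9% and 6.50% from 100 to 200 bp, and in 29.2% and 19.4% from 200 to 500 bp, where the class in both lists reached 35.2%. Midpoints of all native ATAC regions held AP-1 in 30.9% of 400 bp windows.

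TEAD, RUNX and CTCF words also had higher shares at accessible Satb1 peaks than at the rest. TEAD (GGAATG), the DNA-binding partner of YAP, was matched in 17.3% (15.2 to 19.6) against 14.4% (13.9 to 14.9), RUNX (TGNGGT) in 43.1% (40.3 to 46.0) against 36.5% (35.9 to 37.2), and the core of CTCF (CCA, any 2 bases, AG, any 2 bases, GGC), the factor at loop anchors, in 1.42% (0.829 to 2.26) against 0.397% (0.317 to 0.490). GRHL (AACCNGTT) did not differ by more than its interval, 3.34% (2.40 to 4.52) against 3.12% (2.90 to 3.36). The CEBP word (TTNNGNAA) had a lower share, 72% (69.4 to 74.5) against 80.4% (79.8 to 80.9). These short words overlap in composition with the A/T content given above, and a match is not a bound site.

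**Figure D4:**
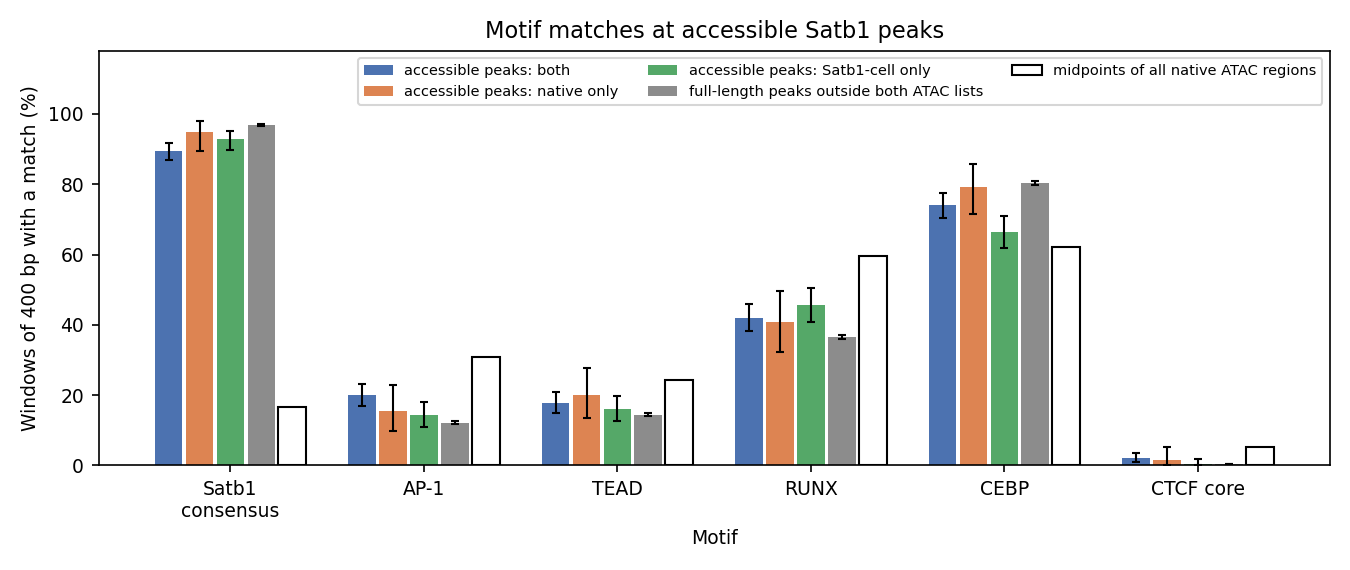
Percentage of 400 bp windows with at least 1 match (y axis) for 6 motifs (x axis), in the 3 classes of accessible Satb1 peaks, in full-length peaks outside both ATAC lists and at midpoints of all native ATAC regions, with exact 95% intervals for the peak groups. The consensus, which the paper derived from full-length peaks of these cells, is above 89% in each peak group and 16.7% at ATAC midpoints. AP-1 runs from 12.1% to 19.9% in the peak groups against 30.9%.

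Accessible Satb1 peaks were closer to genes than the others. The median distance from summit to the nearest protein-coding start was 49.4 kb (43.6 to 56.9) against 111 kb (108 to 115), and 12.3% (10.5 to 14.3) against 5.36% (5.06 to 5.67) were within 5000 bp of one. Most still lay between genes (59.1%) or in introns (37.9%), as did the rest (61.2% and 37.3%). The class seen in Satb1-expressing cells only was intergenic in 66.0% (61.2 to 70.6) and intronic in 31.1%, against 55.5% and 41.3% for the class in both lists.

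Promoters, defined as 1000 bp before to 100 bp after a start, held 0.551% of all full-length summits and 1.75% (1.09 to 2.67) of the accessible ones, 21 peaks. The strongest, with a fold enrichment of 29.2, was at AKAP17A on chromosome X, which encodes a protein kinase A anchoring protein. The same gene gave a second peak of 26.9 at its other pseudoautosomal copy, on chromosome Y, so these may be the same site. Both are counted among the 21. GPX3, a secreted glutathione peroxidase, followed at 23.9 with 5 matches. It was found in all 4 other ChIP lists. SPANXN3, a testis gene, had 19.7, in a native-only region of 211 bp. CSTF2T, an mRNA cleavage factor, had 15.2 and was accessible in both lists.

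The weaker promoter peaks ranged from 4.14 to 11.4. In both lists were ARHGAP11A-SCG5, ZNF652, ZNF30, RTN4, H3C10, TRAFD1, TMEM116 and FOSB, an AP-1 subunit whose peak had a fold enrichment of 5.83. OR2T3 was in the native list only. In the Satb1-expressing list only were FMO2, AHI1, NEIL1, a DNA glycosylase, TENM2, FGF21 and the start shared by TMEM258 and FEN1. Several of these were near misses in native cells: the native region was 14 bp away at AHI1, 97 bp at NEIL1, 171 bp at TENM2 and 194 bp at TMEM258. FGF21, a metabolic hormone, was the exception among them in having both a strong ATAC region (fold enrichment 14.3) and a gap over 1 kb, with the nearest native region 1167 bp away.

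Gene lists relevant to mammary epithelium and to Satb1 were read for accessible peaks in the gene body or within 50000 bp of it. Over all 20176 protein-coding genes, 460 (2.28%) had one in the body and 1199 (5.94%) had one within that distance. The lists are short and hold genes of differing length, so their counts are a description. A peak within 50000 bp of a listed gene can lie in or nearer to another gene, and the same peak can count for several genes. Of 18 basal mammary genes 3 had one in the body, ITGA6, LAMA3 and EGFR, and 5 within 50000 bp, adding LAMB3 and CDH3. The LAMB3 peak lay 33.9 kb downstream of the gene and 2.71 kb from the start of CAMK1G. The CDH3 peak is the intronic peak of CDH1 given below. ITGA6, an integrin of hemidesmosomes, had 2 intronic peaks in both lists, at fold enrichments of 6.46 and 8.39. EGFR, the receptor that MCF10A cells depend on for growth, had an intronic peak of 5.76 in both lists and another of 5.63 in Satb1-expressing cells only. The first of these was found in none of the 4 other ChIP lists.

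Of 18 luminal genes, GATA3 and GRHL2 had one in the body and PGR and CLDN4 nearby. GATA3, a transcription factor of luminal cells, had a peak of 12.7 in an intron with its summit inside the region in both lists. PGR, the progesterone receptor, had one of 18.8 that lay 3.09 kb upstream of its start and overlapped the region by 29 bp. Of 20 genes of the epithelial to mesenchymal transition 3 had one, all in the body and in both lists. TWIST2, a transcription factor of that transition, had the strongest at 43.9, with 7 matches, and its summit stood 1096 bp outside the native ATAC region that the peak overlapped. CDH1, E-cadherin, had one of 6.53, the same peak as that counted for CDH3, and TGFBR2, a TGF-beta receptor, one of 5.41. Of 14 EGF receptors and ligands, ERBB4 had one of 12.7 besides those of EGFR.

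None of 24 AP-1 and Hippo pathway genes had an accessible peak in the body, and 4 had one nearby. These were FOSB, BATF3, WWTR1, which encodes TAZ, and CCN1, with fold enrichments of 5.83, 21.1, 28.2 and 4.0. The WWTR1 and CCN1 peaks lay in introns of other genes, with TM4SF4 and DDAH1 as nearest starts. Of 24 focal adhesion genes 0 had one in the body and 12 had some full-length peak there, and PTK2, MYH9 and LPP had an accessible peak nearby. Of 19 chromatin loop and nuclear organiser genes 0 had one within 50000 bp, and 14 had some full-length peak in the body. Over all genes, 20.6% had some full-length peak in the body, 2.28% had an accessible peak there and 5.94% had an accessible peak within 50000 bp. The median gene length was 106 kb in the focal adhesion list and 100 kb in the organiser list, against 27.2 kb over all genes. Counts of 0 accessible peaks in lists this short are near the shares for accessible peaks over all genes. Of 10 topoisomerase genes, TOP1MT, the mitochondrial enzyme, had an intronic peak of 35.7 with 11 matches in both lists. TOP2A had one of 4.71 that lay 37.3 kb upstream, in an intron of another gene, with IGFBP4 as nearest start.

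Few genes held several. SLC25A48, a mitochondrial carrier gene on chromosome 5, held 11 accessible peaks among 14, of which 7 were Satb1-expressing only. CNIH3, which encodes an auxiliary protein of AMPA receptors, on chromosome 1, held 5 of 7, all in both lists, with fold enrichments from 5.51 to 30.7. MARCHF1, a ubiquitin ligase gene, held 4 of 13, RGS7, which encodes a G protein regulator, 4 of 13, and PRKG1, cGMP-dependent protein kinase, 3 of 18. GPATCH2, HYDIN, SDCCAG8, RASAL2, PTPN14 and SEC22B held 3 each, as did GPR141 with a gene that overlaps it, and 1 other gene, on chromosome 7. CNIH3, RGS7, GPATCH2, SDCCAG8, RASAL2, PTPN14 and SEC22B all lie on chromosome arm 1q. There 14% of full-length peaks were accessible, against 4.57% on all other arms, so these genes are not separate observations.

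Accessible peaks were uneven along the genome. The arm 1q held 226 of them among its 1619 full-length peaks (14%, 12.3 to 15.7), against 4.57% (4.29 to 4.86) on all other arms. The arm held 7.08% of full-length peaks and 6.63% of native and 6.94% of Satb1-expressing ATAC regions, although 8.64% and 10.5% of their base pairs. Copy number and mappability along this arm were not examined, and their part was not tested. Within 2 Mb of a gap of at least 1 Mb in the reference assembly, mostly centromeres, 134 of 856 peaks (15.7%, 13.3 to 18.3) were accessible, and these were weak (median fold enrichment 4.68) with a mean of 1.37 matches. Clusters there were 17 of 28 peaks at 142 to 143 Mb of chromosome 1, 14 of 19 at 29 to 30 Mb of chromosome 20 and 13 of 15 at 49 to 50 Mb of chromosome 4. Both places were chosen after their values were seen. Chromosome Y, likewise chosen, held 44 full-length peaks, of which 13 (29.5%, 16.8 to 45.2) were accessible, the highest share of any chromosome. Of the 13, 6 lay at 13 to 14 Mb, near such a gap. The part of read placement on chromosome Y was not tested. Outside 1q and farther from gaps the accessible share was 4.24%, and the median fold enrichment 8.51 for the 867 accessible against 7.33 for other peaks. The mean number of matches there was 2.84 (2.69 to 2.98) against 2.77 (2.74 to 2.79), with overlapping intervals. The order of the match means seen over all peaks thus did not hold there.

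Most accessible peaks were also present in the construct and drug lists, as were most of the others. In the ∆HD list, which held 88.6% of all full-length peaks, 91.1% (89.3 to 92.6) of accessible and 88.4% (88.0 to 88.9) of other peaks were found. In the N-C1 list, with 95.2% of all, the shares were 96.2% (95 to 97.2) and 95.1% (94.8 to 95.4). In the camptothecin list, with 81.7% of all, they were 79.2% (76.8 to 81.5) and 81.8% (81.3 to 82.3), and in the ICRF-193 list, with 92.9% of all, 90.4% (88.6 to 92.0) and 93.1% (92.7 to 93.4). All 4 lists held 70.0% of accessible, 70.8% of other and 70.8% of all peaks. The ∆HD share was thus higher and the ICRF-193 share lower at accessible peaks, with intervals that did not overlap, while the N-C1 and camptothecin intervals overlapped. The separation was narrow. The ∆HD intervals overlapped when the summit had to lie inside a region, 90.3% (87.9 to 92.4) against 88.5%, with 50% of the peak covered, with 200 bp at the summit, with ATAC −log10 q of at least 5 and without the 16-base word. Those of ICRF-193 overlapped with that q, 92.4% (90.4 to 94.1) against 93.0%, with full-length fold enrichment of at least 5, 93.7% (92.0 to 95.1) against 94.3%, and without 1q and assembly gaps. Among peaks with a fold enrichment of at least 5 the camptothecin order turned, with 84.7% for accessible and 84.0% for other peaks, and all 4 lists held 76.3% and 73.3%.

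In the drug lists the peaks found were the stronger ones. Accessible peaks found in the camptothecin list had a median fold enrichment of 9.10 in untreated cells and those missing from it 5.32, and for ICRF-193 the values were 8.15 and 5.07. For ∆HD they were 7.60 (7.33 to 7.87) and 7.05 (5.91 to 8.28), with overlapping intervals. Accessible peaks with the summit inside an ATAC region, the weaker kind, were in the camptothecin list in 74.1% (70.6 to 77.3), and those that only reached in, in 86.0% (82.7 to 88.9). Among the classes the Satb1-expressing-only peaks had the lowest share in all 4 lists, 66.3% (61.5 to 70.8), against 71.6% (67.9 to 75.0) for both lists and 74.1% (65.8 to 81.2) for native only, with overlapping intervals. Fold enrichment is scaled within each list, so no ratio between lists is given.

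The strongest peaks of each class were present in all 4 lists. In both ATAC lists these were the peak in KDM5A (fold enrichment 54.3) and those near RGCC (54.0), LRRC8B (52.4), TMEM225B (52.4) and STK32A (52.3). The KDM5A peak had fold enrichments of 65.3 in ∆HD, 83.3 in N-C1, 55.8 with camptothecin and 64.1 with ICRF-193. The STK32A peak had 12 and 39.8 in the constructs and 60.9 and 66.1 with the drugs. In the native list only the strongest were near POM121L12 (40.2), in FRMD3 (28.4), near PAWR (26.4), in SLC9A4 (26.3) and near SULT1C4 (25.8). The FRMD3 peak had 7.83 in ∆HD, 42.1 in N-C1, 18.9 with camptothecin and 31.1 with ICRF-193. In the Satb1-expressing list only they were near FOXD4L3, DIRAS2, BMF and CTSB, among others, with fold enrichments from 55.3 to 59.0. The FOXD4L3 peak had 52.1, 71.3, 78.3 and 86.6 in the same order, and the BMF peak 27.3, 57.9, 61.8 and 74.5.

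**Figure D5:**
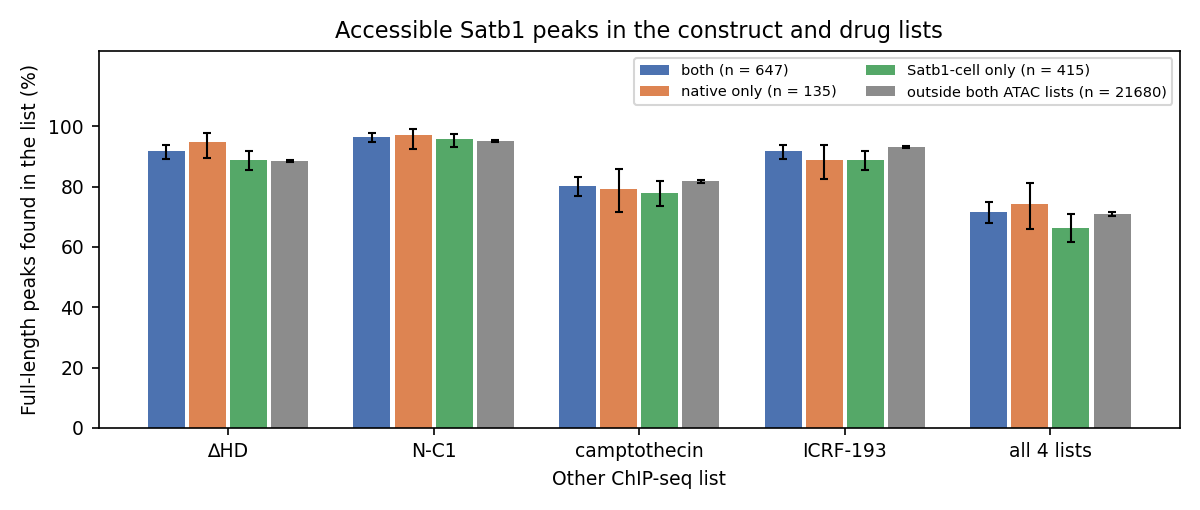
Percentage of full-length Satb1 peaks found in each other ChIP-seq list (y axis) for the 3 accessible classes and for peaks outside both ATAC lists, with exact 95% intervals. Shares in the ∆HD, N-C1 and ICRF-193 lists are at or above 88% in every group, and camptothecin shares run from 77.8% to 81.8%.

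Taken whole, the other lists differed somewhat in accessible share. The interval of ∆HD lay above that of full-length Satb1 and those of both drug lists below it, while that of N-C1 overlapped it. The share overlapping an ATAC region of either list was 6.31% (6.10 to 6.53) for the 50537 ∆HD peaks, 5.09% (4.92 to 5.26) for the 62856 N-C1 peaks, 4.64% (4.38 to 4.91) for the 24475 camptothecin peaks and 4.51% (4.31 to 4.73) for the 37350 ICRF-193 peaks, beside 5.23% (4.95 to 5.53) for full-length Satb1. The Satb1-expressing-only class made up 1.81% of full-length peaks and 1.31% to 1.71% of the peaks of each other list.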

How the data were processed

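ChIP-seq and ATAC-seq peak lists were analysed. Per the study's methods the authors trimmed reads with cutadapt, aligned them to hg19 with Bowtie2 and called peaks with MACS2, narrow for ChIP-seq against input and broad for ATAC-seq. The deposited files give, per peak, a fold enrichment (a ratio to background), −log10 p- and q-values and a score. Alignment used default settings. How reads with several placements were treated, whether duplicates were pooled and the depth behind each list are not given in the sources used here. The smallest −log10 q was 1.45 in the full-length list, 1.22 in the native and 1.18 in the Satb1-expressing ATAC list. Of 20 samples, 7 peak lists were used. The 13 others, among them 3 mouse peak lists, were not used.

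Overlap meant at least 1 bp between the deposited intervals. Motifs were searched as exact words on both strands in 400 bp at the ChIP-seq summit, and A/T content in 200 bp. Sequence was read from hg19, and genes came from protein-coding transcripts. RefSeq promoter windows were those of GRCh38 and were used only for motif shares. For 1 accessible peak and 19 full-length peaks in all, the reference lacked sequence in the window, wholly or in part. Bases without sequence counted as no match. Shares have exact Clopper-Pearson 95% intervals, means an interval from the SD across peaks, and medians an order-statistic interval. Each condition had a single list, so no test was run. The scripts (bedtools 2.31.1, pysam 0.24.0 and scipy 1.17.1 under Python 3.11.15) were tested on simulated data and gave 0 wrong answers for 3000 intervals, 3000 summits and 992 planted motifs.

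The peaks and gene lists were chosen with earlier results of these data known. Named were every promoter peak, the 5 strongest peaks of each class, the 5 with the most matches, the 5 in the strongest native ATAC regions with the summit inside, the 5 with the smallest overlap or gap, those absent from all 4 other ChIP-seq lists, the 10 genes with most accessible peaks and the listed genes with a peak within 50000 bp, of which the text gives a selection. The shared 16-base word, sought off chromosome 8, the strongest 100, 250 and 1000 peaks, the cover at set distances, the AP-1 rings, the CDON peak, 1q, assembly gaps and chromosome Y were chosen after values were seen. Some peaks that this rule names are not reported here.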

Additional observations from a re-analysis of the deposited data

How the results depend on the processing

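Of 136 values recomputed under alternatives, 70 stayed close to the reported value and 66 did not. Close meant within the interval of the reported value. Class counts have no interval and were judged by a fixed ratio to the reported count. By that ratio a fall from 647 to 455 in the class in both lists, with 200 bp at the summit, counted as close. The causes were not tested, except that a setting which keeps fewer peaks gives fewer. The accessible share of 5.23% became 2.99% with the summit inside a region or with at least 50% of the peak covered, 3.90% with 200 bp at the summit, 3.62% with ATAC regions of −log10 q of at least 5, 4.74% with full-length peaks of fold enrichment of at least 5, and 4.24% without 1q and assembly gaps. The class in both lists then counted 313 (summit inside) or 312 (50% covered), native only 85, 88 or, with −log10 q of at least 5, 82, and Satb1-expressing only 274 with that q and 264 without 1q and gaps.

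With the summit inside, 50% covered and 200 bp at the summit, in that order, median fold enrichment was 6.50, 6.50 and 6.67, mean matches 2.18, 2.19 and 2.29, A/T content 68.4%, 68.5% and 68.9%, AP-1 20.1%, 19.9% and 20.3%, presence in the camptothecin list 74.1%, 74.2% and 74.0%, in the ICRF-193 list 87.6%, 87.6% and 88.1%, and in all 4 lists 64.3%, 64.3% and 64.8%. The consensus share was 88.3% for the first 2, and the share of summits inside was 98.1% with 50% covered and 76.5% with 200 bp. With full-length fold enrichment of at least 5, the values were 8.84 for the median, 2.83 matches, 94.2% with the consensus, 70.7% A/T, 52.8% of summits inside, and 84.7%, 93.7% and 76.3% in camptothecin, ICRF-193 and all 4 lists. ATAC −log10 q of at least 5 gave 92.4% in ICRF-193. Without 1q and gaps, chosen after seeing the data, the median was 8.51, matches 2.84, consensus 93.3%, A/T 70.5% and summits inside 51.9%, and without peaks holding the 16-base word matches were 2.47.

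Requiring fold enrichment of at least 5 in the other list gave 84.5% in ∆HD, 88.6% in N-C1, 67.2% in camptothecin, 77.9% in ICRF-193 and 57.6% in all 4. Windows of 150 bp gave 1.89 matches and 85.5% with the consensus, CTAATAR alone 0.958 matches and 60.8%, 200 bp windows 5.60% with AP-1, and 400 bp windows 66.6% A/T. Promoters of 2000 bp on either side held 5.35% and those of transcripts of every type 6.35%. As reported and under each of the 7 alternatives that redefine or leave out peaks, the consensus share and A/T content were lower at accessible peaks, and AP-1 in 400 bp and the ∆HD share higher, although the ∆HD intervals overlapped in 5 of the 7. No paired analysis was possible because each condition had a single list. The depth of each list is not given in the sources used here, so weak regions absent from 1 ATAC list cannot be told apart from regions below its detection limit.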
